A study of Mus musculus with 4 samples.

Results

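The collagen family was followed through the fetal mouse head. Its members were all genes whose symbol is Col, a number, a and a number, such as Col1a1, which gave 44 of the 19465 genes listed. Of these, 43 had at least 100 counted molecules over all tissue and are described here. Col24a1, a fibrillar collagen, had 44 and is only counted. Formalin-fixed coronal sections through the middle of the palate were taken from wild-type C57BL/6J heads at E14.5 and E15.5, with no transgene and no treatment in either group, and gene expression was read on Visium arrays. Each stage had 2 capture areas, an area with the single section of replicate 1 and an area with the 3 sections of replicates 2, 3 and 4, called A, B and C because the labels do not tie a section to a number. The paper states biological triplicates for its spatial sequencing, while the labels do not say that replicates came from separate embryos or litters. A capture area is 1 library, so p-values over areas measure the spread between these libraries. Each Visium spot covers a small patch of tissue with several cells, often of more than 1 type, and a unique molecular identifier (UMI) marks 1 captured molecule.

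Collagens are proteins built from 3 chains that wind into a triple helix, and each gene here encodes a chain. The fibrillar collagens form the ropes of bone, cartilage, tendon and dermis, fibril-associated collagens sit on the surface of those ropes, and network-forming collagens build sheets such as the basement membrane under every epithelium and around muscle fibres and vessels. Transmembrane collagens span the membrane of the cell that makes them, and type VII collagen anchors the epidermal basement membrane to the dermis. In the fetal head, type I collagen is the main protein of forming bone and type II collagen that of cartilage.

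The 6357 tissue spots held 15438992 UMIs in the E14.5 replicate 1 area, 109127953 in the other E14.5 area, 67344393 in the E15.5 replicate 1 area and 89128289 in the other E15.5 area. Sections differed in depth, with medians of 6759 and 10037.5 UMIs per spot in the E14.5 replicate 1 section and in E14.5 section A and medians of 38795 to 65616 in the other 6 sections. Levels are given as CPM, the UMIs of a gene per 1000000 UMIs of the same spots. CPM takes no account of how readily each gene is captured, so levels are compared within a gene and not between genes. Values of 4 areas are listed in the order E14.5 replicate 1, E14.5 replicates 2, 3 and 4, E15.5 replicate 1, E15.5 replicates 2, 3 and 4. In summed spots, more cells of a type and more RNA per cell cannot be told apart.

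Collagen UMIs made up 2.36%, 3.54%, 3.21% and 4.93% of all UMIs in the 4 areas. Of the family's UMIs, 85.3% came from the fibrillar group, 5.44% from the fibril-associated group, 5.33% from type VI collagen, which forms beaded filaments, and 2.20% from the type IV chains of basement membranes. The 4 transmembrane collagens gave 0.471%, the 3 short-chain network collagens of types VIII and X 0.435%, the 2 multiplexins of types XV and XVIII 0.3% and type VII collagen 0.0540%. These are shares of counted molecules and not of protein. Col1a1, a chain of type I collagen, stood at 7461, 14185, 11002 and 19192 CPM in the 4 areas and its partner chain Col1a2 at 6393, 8268, 8637 and 11638 CPM. Col3a1, the single chain of type III collagen of soft connective tissue, stood at 3207, 3322, 3709 and 5543 CPM, and Col2a1, the single chain of type II collagen of cartilage, at 1546, 2381, 1870.0 and 3116 CPM. These values of Col1a1 and Col2a1 overlapped between the stages, while those of Col1a2 and Col3a1 did not. With the mean of the spots' CPM, Col1a2 (10710, 8298, 9470 and 11188) and Col3a1 (5534, 3369, 3907 and 5503) overlapped as well. Of 14624 genes with at least 100 UMIs, 25.2% rose and 15.3% fell without overlap by the CPM of the sum.

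**Figure D1:**
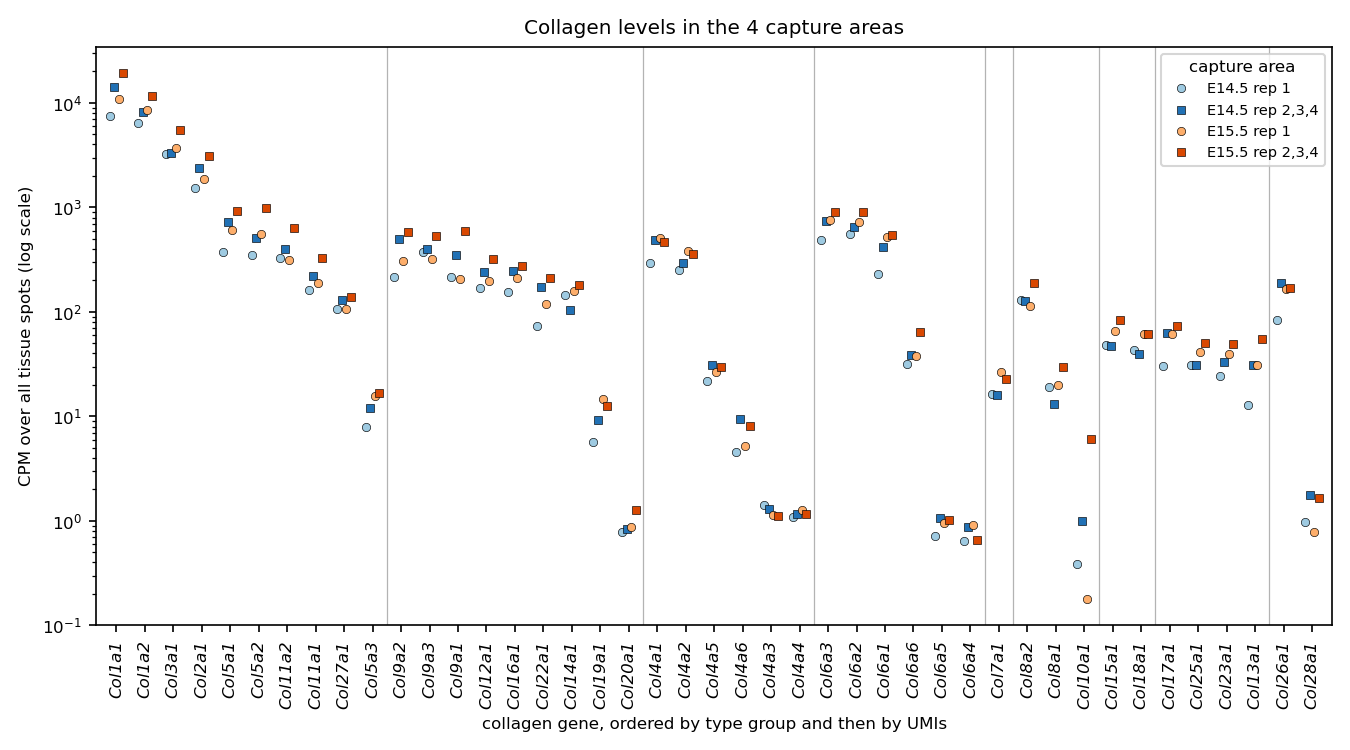
Level of each of the 43 collagens in the 4 capture areas, in CPM over all tissue spots on a log scale, with genes grouped by collagen type and circles for replicate 1 areas and squares for the areas of replicates 2, 3 and 4. Col1a1 sits between 7461 and 19192 CPM, and 7 genes lie under 2 CPM in 1 or more areas.

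As the plot of levels by area shows, members differed between areas by up to 2.92-fold, apart from Col13a1 with 12.9, 30.8, 31 and 54.7 CPM and Col10a1 with 0.389, 1.01, 0.178 and 6.09 CPM. Apart from Col10a1, the members with the fewest UMIs were Col4a3 and Col4a4, chains of a basement membrane network best known from the kidney, Col6a4 and Col6a5, additional chains of type VI collagen, the fibril-associated Col20a1, and Col28a1 of type XXVIII collagen. Their levels lay between 0.648 and 1.75 CPM in every area, on 226 to 407 UMIs over all tissue, and each had a UMI in under 6% of the spots. Col1a1, by contrast, had a UMI in 99.3% of the tissue spots.

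The stretches before the start of 5 members are shown because these genes stand for the places described below, Col13a1 for spots rich in bone genes, Col11a1 for bone and cartilage spots, Col9a1 for cartilage spots, Col10a1 for a pattern of single sections and Col7a1 for epithelial spots. Each is the 100 bases before the RefSeq start, which is also the start of the gene in the GENCODE annotation of the same build, read in the direction of the gene. Capitals mark matches on either strand to 1 of 3 promoter motifs, searched by their letters. These were TATAAA, where the general factors of transcription assemble, then GGGCGG, the core bound by factors such as Sp1, and lastly CCAAT. No matches overlapped.
Col13a1: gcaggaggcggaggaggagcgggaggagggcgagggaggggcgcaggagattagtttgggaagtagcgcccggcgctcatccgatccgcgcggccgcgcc
Col11a1: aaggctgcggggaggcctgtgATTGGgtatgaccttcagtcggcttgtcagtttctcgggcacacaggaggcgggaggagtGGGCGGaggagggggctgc
Col9a1: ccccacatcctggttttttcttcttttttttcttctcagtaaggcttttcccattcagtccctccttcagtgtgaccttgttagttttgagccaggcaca
Col10a1: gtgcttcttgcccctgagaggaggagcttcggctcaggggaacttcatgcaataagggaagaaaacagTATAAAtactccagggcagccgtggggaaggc
Col7a1: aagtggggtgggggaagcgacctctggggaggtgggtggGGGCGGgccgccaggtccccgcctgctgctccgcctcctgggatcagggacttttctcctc
In RefSeq's table for GRCm38.p6 these lie at chr10:61979109-61979208 on the minus strand and, on the plus strand, at chr3:114030440-114030539, chr1:24177510-24177609, chr10:34389881-34389980 and chr9:108953486-108953585. In Col10a1 the TATAAA begins 32 bases before the start, at -32. Col11a1 holds GGGCGG at -19 and CCAAT, on the reverse strand, at -79, and Col7a1 holds GGGCGG at -61, while no match was found in the stretches of Col13a1 and Col9a1. Of the 38 starts listed for 35 members, 5.26% held TATAAA in these 100 bases against 5.56% of 32851 starts of all genes, 47.4% held GGGCGG against 24.7%, and 10.5% held CCAAT against 18.9%. A match of letters is a description of the sequence and not a measured binding site.

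Members also lie beside each other on the chromosomes. By the GENCODE annotation of GRCm38, 8 pairs of members were separated by less than 100000 bases, 3 of them head to head, 2 tail to tail and 3 in the same direction. The head-to-head pairs are all type IV chains. Col4a1 and Col4a2 on chromosome 8 overlap by 22 bases at their starts, Col4a3 and Col4a4 on chromosome 1 lie 71 bases apart, and Col4a5 and Col4a6 on chromosome X lie 1308 bases apart. Over the spots of a section, the mean Pearson correlation over the 8 sections was 0.60 for the first pair and 0.24 and 0.20 for the others, which had far fewer UMIs. The pair Col9a1 and Col19a1 on chromosome 1, with 9205 bases between their 3′ ends, had a mean correlation of -0.10 (-0.23 to 0.06).

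Where each collagen lay was asked with lists of genes that mark a tissue and hold no collagen. For each list, the 10% of spots of a section with the highest summed level were taken as rich in that list, 627 of 6269 spots in each case, and their summed UMIs were compared with those of all other spots of the same sections, with the capture area as a block, in edgeR's quasi-likelihood test with Benjamini-Hochberg adjustment over all genes and a threshold of 0.1. The bone list was Ibsp, Sp7, Ifitm5, Alpl, Dmp1, Phex, Bglap and Mepe, and the cartilage list Acan, Matn1, Matn3, Hapln1, Cnmd, Snorc, Epyc and Chad. Further lists marked tendon (Scx, Tnmd, Mkx, Fmod, Kera and Thbs4), skeletal muscle (Myh3, Myh8, Actn2, Ttn, Tnnt3, Ckm and Myog), stratified epithelium (Krt5, Krt14, Krt15, Krt10, Krtdap, Trp63, Perp and Dsp), neurons (Tubb3, Stmn2, Snap25, Mapt, Nefl and Dcx), endothelium (Pecam1, Cdh5, Kdr, Tie1, Emcn, Egfl7 and Cldn5) and oral mesenchyme (Osr2, Pax9, Msx1, Shox2 and Barx1). Each of these genes had UMIs in every area, apart from 1 bone gene in the E14.5 replicate 1 area. Such spots are a range and not a cell type. Between 135 (cartilage) and 445 (endothelium) spots lay within 10% of the level that separated rich spots from the rest, 315 spots were rich in both muscle and tendon genes (50.2% of each), 155 in epithelium and oral mesenchyme genes, and 45 in bone and cartilage genes.

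**Figure D2:**
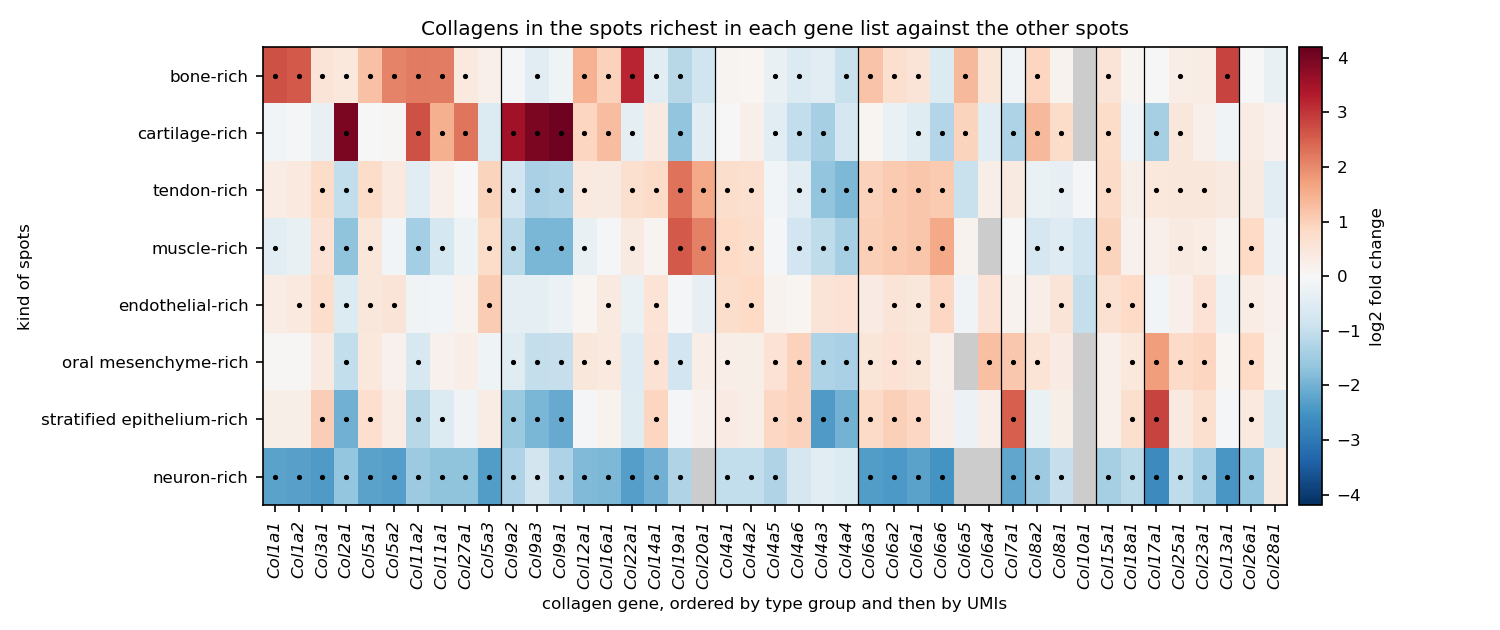
Log2 fold change of each of the 43 collagens (columns) in the spots rich in each gene list (rows) over the other spots, over 4 capture areas, with red for higher, blue for lower, grey for not tested and a dot where edgeR's adjusted p was under 0.1. Bone-rich, cartilage-rich and neuron-rich spots carry the darkest fields, with Col9a1 at 4.09 in cartilage-rich spots.

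The map of fold changes shows that members differed in where they were highest, though many were called higher in several kinds of spots. Col6a1 and Col6a2 were called higher in 6 of the 8 kinds and Col13a1 in 1. Fold changes of different kinds of spots were not tested against each other. Of the 43 described members, 10 had their highest called fold change in bone-rich spots, 9 in cartilage-rich, 7 in muscle-rich, 6 in stratified epithelium-rich, 4 in oral mesenchyme-rich and 3 in endothelial-rich spots, and 4 (Col4a3, Col4a4, Col10a1 and Col28a1) were called higher in none of the 8. The share of all UMIs that were collagen was 9.28% to 11.8% over the 4 areas in bone-rich spots, 4.23% to 6.80% in cartilage-rich spots, 3.64% to 5.18% in tendon-rich spots and 0.447% to 2.14% in neuron-rich spots.

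Bone-rich spots held more UMIs of both type I chains and of a set of partners. Of 42 members tested, 20 were called higher and 6 lower, where 27.5% of all 13910 genes tested were called higher and 26% lower, and the median log2 fold change was 0.29 against 0.01 for all genes. Col1a1 (chromosome 11, 94936224 to 94953042) reached 41206, 50306, 42748 and 61386 CPM in bone-rich spots and 5331, 9238, 7472 and 13984 CPM in the others. The bone-rich spots were higher in every area, by 4.39-fold to 7.73-fold (log2 fold change 2.69 ± 0.13 (SE), edgeR adjusted p = 3.05e-05). Its partner Col1a2 was higher by 4.2 to 7.11 fold (log2 fold change 2.58 ± 0.12 (SE), edgeR adjusted p = 3.02e-05).

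The largest difference in bone-rich spots was that of Col22a1 (chromosome 15, 71795795 to 72034227), a fibril-associated collagen known from tissue junctions such as the muscle-tendon boundary. It stood at 504, 725, 572 and 851 CPM in bone-rich spots against 46.8, 96.2, 68.7 and 132 CPM elsewhere (log2 fold change 3.19 ± 0.11 (SE), edgeR adjusted p = 1.36e-05). Between 40.4% and 50.8% of its UMIs lay in those spots, and all 8 sections had it higher there, by 4.83-fold to 10.8-fold. Col13a1, a transmembrane collagen known from the nerve-muscle junction, stood at 61.3, 125, 141 and 188 CPM against 9.85, 18, 18.8 and 38.8 CPM (log2 fold change 2.84 ± 0.11 (SE), edgeR adjusted p = 2.10e-05) and was higher in 8 of 8 sections. For neither gene did the values of bone-rich and other spots overlap. In muscle-rich spots Col22a1 differed by 0.38 ± 0.12 (SE) on the log2 scale (adjusted p = 0.0406, edgeR), a call lost without the E14.5 area of replicates 2, 3 and 4 (0.34) and without the E15.5 replicate 1 area (0.33). Of the 8 kinds of spots, Col22a1 was called higher in 3 and lower in 2, while Col13a1 was called higher in bone-rich spots and in no other kind.

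Minor fibrillar chains, which start and limit the width of fibrils, were higher too. Col5a2 of type V collagen differed by 2.09 ± 0.10 (SE) on the log2 scale and its partner Col5a1 by 1.22 ± 0.12. The type XI chains Col11a1 and Col11a2, best known from cartilage, differed by 2.14 ± 0.09 and 2.20 ± 0.10, with Col11a1 at 560.2, 626, 648 and 855 CPM in bone-rich and 135, 164, 140.0 and 269.9 CPM in other spots. All 4 chains were higher in 8 of 8 sections. The fibril-associated Col12a1 (1.47) and Col16a1 (0.95), Col6a3 of type VI collagen (1.19) and Col8a2 of type VIII collagen (0.91) were called as well, with edgeR adjusted p-values between 3.84e-04 and 0.00343. Col6a5 had 0, 33, 12 and 18 UMIs in the bone-rich spots of the 4 areas (log2 fold change 1.37 ± 0.29 (SE), edgeR adjusted p = 0.00817). The cartilage chain Col2a1 was also called higher in bone-rich spots, and it was called lower in the 6 kinds of spots other than bone-rich and cartilage-rich.

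Lower in bone-rich spots were Col19a1 (-1.18), a fibril-associated collagen, and Col9a3 (-0.47), a type IX chain, with Col4a4, Col4a5, Col4a6 and Col14a1 between -0.92 and -0.31. The latter 4 calls were lost without the E14.5 area of replicates 2, 3 and 4 and without at least 1 E15.5 area. Members called lower numbered 3, 3 and 2 without the E14.5 area of replicates 2, 3 and 4 and without the E15.5 areas of replicate 1 and of replicates 2, 3 and 4. With library size in place of TMM normalization, the median of all genes moved to -0.18, the split of all genes from 3827 higher and 3614 lower to 2046 and 5781, and that of the members to 16 higher and 10 lower.

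Cartilage-rich spots separated a smaller set by larger differences. Of 42 members tested, 14 were called higher and 9 lower, where 11.6% of 14000 genes were called higher and 12.9% lower, with a median log2 fold change of 0.03 against -0.04 for all genes. Col2a1 (chromosome 15, 97975602 to 98004695) stood at 14262, 13400.0, 11880.0 and 19613 CPM in cartilage-rich spots and 871, 899, 778 and 1224 CPM elsewhere. The folds of the areas were alike at 16.4, 14.9, 15.3 and 16 (log2 fold change 3.95 ± 0.09 (SE), edgeR adjusted p = 2.46e-06). From 46.5% to 66.8% of its UMIs lay in these 10% of the spots.

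The 3 chains of type IX collagen, which decorates type II fibrils, followed Col2a1. Col9a1 was higher 17.6, 16.4, 20.3 and 15 fold in the 4 areas (log2 fold change 4.09 ± 0.09 (SE), edgeR adjusted p = 2.91e-06). Col9a3 was higher 16, 14.5, 16.5 and 16 fold (3.96 ± 0.08 on the log2 scale) and Col9a2 13, 10.6, 12.3 and 10.8 fold (3.52 ± 0.09). No section had any of the 3 under 9-fold. Col11a2 and Col11a1 were higher by 2.68 ± 0.17 and 1.49 ± 0.17 (SE) on the log2 scale, and Col27a1, a fibrillar collagen of growth cartilage, by 2.25 ± 0.14 (edgeR adjusted p = 3.08e-04). Col8a2 (1.35), Col16a1 (1.28), Col12a1 (0.89) and Col15a1 (0.78), a multiplexin of basement membrane zones, were called in the same direction. Type I collagen was not called, with Col1a1 at -0.13 ± 0.15 (SE) on the log2 scale (edgeR adjusted p = 0.593), and it ranged from 8771 to 15129 CPM in cartilage-rich spots.

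Lower in cartilage-rich spots were Col17a1 (-1.40), a transmembrane collagen of basal keratinocytes, and Col6a6 (-1.23), a type VI chain, and these calls held without any 1 area. The count of lower calls did not hold as well, with 15, 2, 4 and 2 members without each area in turn, and the calls of Col7a1, Col19a1, Col4a3, Col4a5, Col4a6, Col6a1 and Col22a1 were lost without the E14.5 area of replicates 2, 3 and 4 and without the E15.5 area of replicates 2, 3 and 4. Col8a1 of type VIII collagen was called higher (0.76) and lost that call without either of these areas (0.76 and 0.58).

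Whether chains of 1 trimer kept a fixed ratio was read from summed UMIs, since a capture factor of a gene cancels when its ratio is compared between spots. Col11a1 to Col11a2 was 0.525 ± 0.0455 (SD over 8 sections) in bone-rich spots and 0.308 ± 0.0458 in cartilage-rich spots, and the 2 ranges, 0.469 to 0.581 and 0.257 to 0.402, did not overlap. Set against the other spots of the same area, the ratio in cartilage-rich spots was 0.275 against 0.612, 0.347 against 0.691, 0.315 against 0.790 and 0.289 against 0.676. The log2 ratio of inside to outside was -1.18 ± 0.142 (SD, 4 areas) in cartilage-rich and -0.0529 ± 0.0882 in bone-rich spots. An exact two-sided permutation test over the signs of 4 areas gave p = 0.125 for the first, the smallest value that 4 areas allow, and p = 0.5 for the second.

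**Figure D3:**
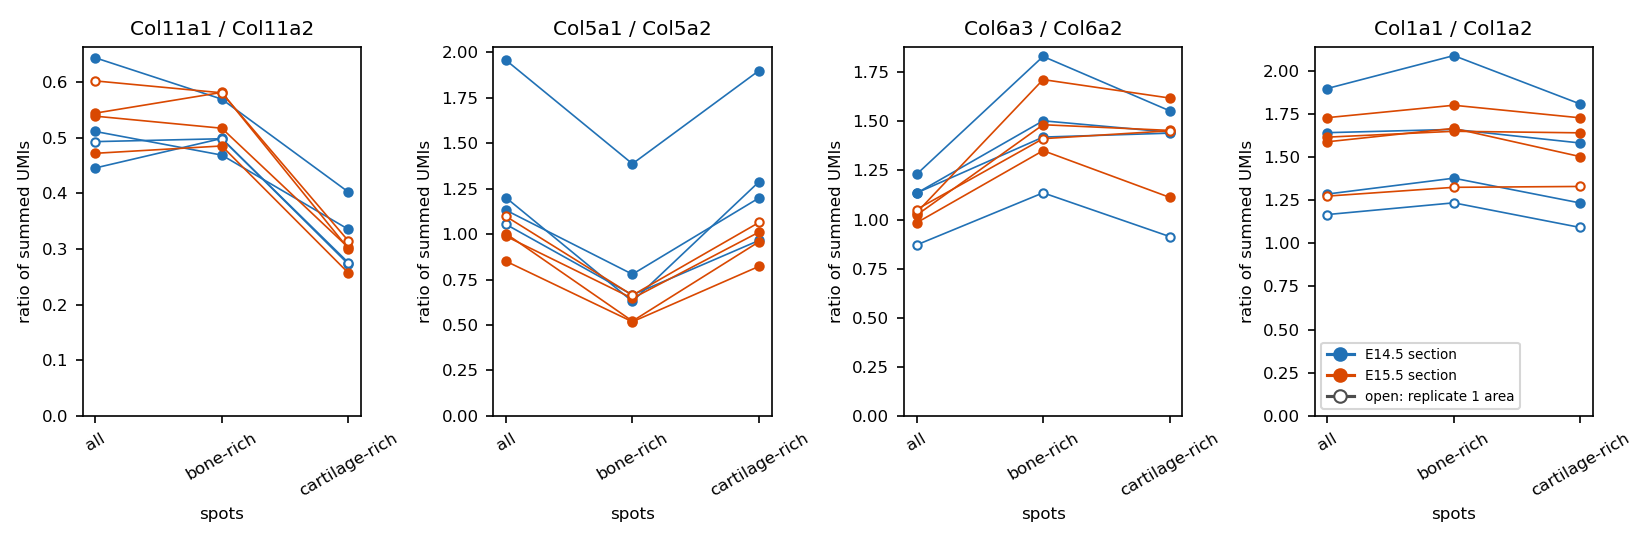
Ratio of summed UMIs of 2 chains in all spots, bone-rich spots and cartilage-rich spots, with a line for each of the 8 sections, blue for E14.5, red for E15.5 and open symbols for replicate 1 areas. Col11a1 to Col11a2 is lower in cartilage-rich spots in 8 of 8 sections, Col5a1 to Col5a2 is lower in bone-rich spots in 8 of 8, and Col6a3 to Col6a2 is higher in both kinds of spots in 8 of 8.

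The plot of chain ratios shows similar shifts for types V and VI. Col5a1 to Col5a2 was 1.16 ± 0.339 over all spots and 0.726 ± 0.280 in bone-rich spots, below the value of all spots in 8 of 8 sections (log2 ratio of inside to outside -0.876 ± 0.103, SD, 4 areas, exact p = 0.125). Col6a3 to Col6a2 was 1.06 ± 0.110 over all spots, 1.48 ± 0.214 in bone-rich and 1.37 ± 0.238 in cartilage-rich spots, above the value of all spots in 8 of 8 sections for both. For 9 ratios in both kinds of spots, 10 of 18 combinations had every section on the same side of its value over all spots, among them also Col4a1 to Col4a2, lower in cartilage-rich spots, and Col9a1 and Col9a3 to Col9a2, higher there. Col1a1 to Col1a2 in bone-rich spots lay above the value of all spots in 8 of 8 sections too (log2 ratio of inside to outside 0.107 ± 0.0379, SD, 4 areas, exact p = 0.125). Over all spots it was 1.17 and 1.27 in the sections of the replicate 1 areas and 1.29 to 1.90 in the other sections. The replicate 1 areas were processed with Space Ranger 1.3.1 and the others with 2.0.0, and the part of that version was not tested.

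Muscle-rich spots were marked by Col19a1, whose product is known from the basement membrane zone of differentiating muscle. Of 42 members, 16 were called higher and 13 lower (21.5% and 25.6% of 13883 genes), with a median log2 fold change of 0.07 against -0.01 for all genes. Col19a1 (chromosome 1, 24261890 to 24587472) stood at 36, 34.5, 53.8 and 34.2 CPM in muscle-rich and 4.45, 5.75, 8.68 and 9.05 CPM in other spots (log2 fold change 2.56 ± 0.17 (SE), edgeR adjusted p = 4.38e-05), with no overlap between them. Col20a1 followed with 2, 38, 22 and 37 UMIs in those spots (log2 fold change 2.12 ± 0.23 (SE), edgeR adjusted p = 3.68e-04).

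Type VI collagen, the beaded filament around muscle fibres, was higher in muscle-rich spots for 4 of its chains. Col6a6 differed by 1.59 ± 0.28 (SE) on the log2 scale, Col6a1 by 1.18 ± 0.14, Col6a2 by 1.10 ± 0.16 and Col6a3 by 1.01 ± 0.14, and each was higher in 8 of 8 sections. The basement membrane chains Col4a1 (0.84) and Col4a2 (0.74), with Col15a1 (0.94) and Col26a1 (0.85), a secreted collagen of type XXVI, were called too. Lower were the cartilage members, among them Col9a3 (-1.93), Col9a1 (-1.92) and Col2a1 (-1.68). With library size in place of TMM, the median of all genes moved to -0.13, all genes split 2011 higher to 4745 lower instead of 2990 to 3560, and the members 13 to 13.

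In tendon-rich spots, many of them shared with the muscle-rich ones, 18 of 43 members were called higher and 8 lower (17.7% and 22.2% of 13880 genes), with a median log2 fold change of 0.39 against -0.01 for all genes, led by Col19a1 (2.29), Col20a1 (1.61) and Col6a1 (1.15). Without TMM, all genes there split 1782 higher to 3887 lower instead of 2454 to 3084, and the members 16 to 8. Col5a3, the third type V chain, differed by 0.93 ± 0.15 (adjusted p = 0.00408, edgeR), and Col14a1, a fibril-associated collagen of tendon and skin, by 0.81 ± 0.22, a call lost without the E14.5 area of replicates 2, 3 and 4 (0.76). The count of lower calls fell to 3 without that area and to 1 without the E15.5 replicate 1 area.

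In stratified epithelium-rich spots, the highest members were the collagens that tie keratinocytes to the dermis. Of 42 members, 14 were called higher and 8 lower (22.2% and 20.8% of 13857 genes), with a median log2 fold change of 0.25 against 0.03 for all genes. Col17a1 (chromosome 19, 47646344 to 47692094), the hemidesmosome collagen of basal keratinocytes, stood at 288, 268, 269 and 251 CPM against 19.7, 40.7, 42.8 and 50.8 CPM (log2 fold change 2.84 ± 0.22 (SE), edgeR adjusted p = 3.19e-04). Col7a1, the anchoring fibril collagen, stood at 131, 55.1, 113 and 67.9 CPM against 11.9, 11.7, 18.6 and 16.3 CPM (log2 fold change 2.52 ± 0.20 (SE), edgeR adjusted p = 3.19e-04). Neither gene overlapped between the 2 kinds of spots, and both were higher in 8 of 8 sections.

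The type IV chains Col4a5 and Col4a6, which form the network under squamous epithelium, were higher there by 0.88 ± 0.16 and 0.97 ± 0.14 (SE) on the log2 scale. Connective tissue members were higher in the same spots, with Col3a1 at 1.02, Col6a2 at 0.99 and Col14a1 at 0.92. Lower were Col4a3 with 0, 1, 4 and 1 UMIs in the spots (-2.39, or -3.68 without the E15.5 replicate 1 area), Col4a4 (-1.98) and the cartilage members Col9a1 (-2.11) and Col2a1 (-2.02). All of the named calls in these spots held under every alternative.

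Spots rich in oral mesenchyme genes had 17 of 41 members called higher and 8 lower (16.4% and 18.4% of 13869 genes), with a median log2 fold change of 0.29 against 0.01 for all genes. The first among them was the epithelial Col17a1 (1.77), with Col7a1 at 1.12, and 24.7% of these spots were also rich in epithelium genes. Members whose highest fold change lay here were the transmembrane collagens Col23a1 (log2 fold change 0.90 ± 0.18 (SE), edgeR adjusted p = 0.0147) and Col25a1 (log2 fold change 0.81 ± 0.11 (SE), edgeR adjusted p = 0.00424), the latter known from motor nerve contact with muscle, together with Col26a1 (log2 fold change 0.85 ± 0.14 (SE), edgeR adjusted p = 0.00849) and Col6a4. Col6a4 rested on 3, 23, 13 and 8 UMIs in the spots, and its call (1.26) was lost without the E14.5 area of replicates 2, 3 and 4 (1.02) and without the E15.5 replicate 1 area (1.28). Counts depended on the areas, with 11 and 8 members called higher without the E14.5 replicate 1 area and without the other E14.5 area.

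Endothelial-rich spots had 17 of 43 members called higher and 1, Col2a1, lower (11.1% and 9.18% of 13786 genes), with a median log2 fold change of 0.31 against -0.03 for all genes. Col18a1, the multiplexin that holds endostatin, stood at 80.4, 74.4, 97.2 and 97.4 CPM against 41.5, 36.5, 58.5 and 56.6 CPM (log2 fold change 0.84 ± 0.08 (SE), edgeR adjusted p = 0.00532). The vessel basement membrane chains Col4a2 and Col4a1 differed by 0.82 ± 0.12 and 0.74 ± 0.11 (SE) on the log2 scale, and Col5a3 by 1.07 ± 0.17. These 4 genes were higher in 8 of 8 sections. The number of members called higher was 5 without the E14.5 area of replicates 2, 3 and 4 and 8 without the E15.5 area of replicates 2, 3 and 4, and 7, 0, 1 and 0 were called lower without each area in turn. The call of Col2a1 (-0.56) was lost without the E14.5 area of replicates 2, 3 and 4 (-0.52), the E15.5 replicate 1 area (-0.62) and the E15.5 area of replicates 2, 3 and 4 (-0.35).

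Of the 8 kinds of spots, neuron-rich spots had the lowest share of collagen UMIs in each area. In section C of E15.5 the richest spots held few neuron UMIs, at a median of 1322 CPM of neuron genes against 7378 to 9013 CPM in the other sections. Without that section, a choice made after seeing the data, the collagen share of the area was 0.767% instead of 2.14%, and 0 members were called higher and 37 lower, with a median log2 fold change of -2.10 against -0.01 for all genes. Of 39 members tested, 0 were called higher and 35 lower (34.4% and 39% of 13639 genes), with a median log2 fold change of -1.62 against -0.04 for all genes, and DESeq2 gave 0 higher and 36 lower. No member had a fold change above 0 at an unadjusted p under 0.05 in edgeR. Col17a1 (-2.68) was lowest, and reached -3.32 without the E15.5 area of replicates 2, 3 and 4. Col6a6 (-2.51) and Col13a1 (-2.43) followed, and Col1a1 stood at -2.26. With library size in place of TMM, the median of all genes moved to -0.12. The smallest called differences were those of Col9a3 (-0.76), Col8a1 (-0.98) and of Col4a1 and Col4a2 (both -1.03). The call of Col9a3 was lost without the E14.5 replicate 1 area (-0.66), the other E14.5 area (-0.70) and the E15.5 replicate 1 area (-0.50). Col4a1 stood at 158, 217, 199 and 295 CPM in neuron-rich spots. Of the 627 neuron-rich spots, 1 was also rich in bone genes and 22 in cartilage genes, and the rest were among the other spots of those comparisons.

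Col10a1, the single chain of type X collagen and the marker of hypertrophic cartilage, was the most uneven member. In the order replicate 1, A, B, C, its UMIs numbered 6, 2, 90 and 18 at E14.5 and 12, 525, 12 and 6 at E15.5. Section A of E15.5 thus held 525 of the 671 Col10a1 UMIs, at 16.2 CPM, in 95 of its 784 spots, with 345 of the UMIs in the 10 highest spots. Of the 525 UMIs, 407 lay in cartilage-rich, 83 in bone-rich and 46 in spots rich in both. With so few UMIs elsewhere, Col10a1 passed the filter on low counts in 3 of the 8 comparisons of spots and was not called in any of the 3, with log2 fold changes of -0.10 in tendon-rich, -0.83 in muscle-rich and -0.99 in endothelial-rich spots (smallest edgeR adjusted p = 0.168).

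**Figure D4:**
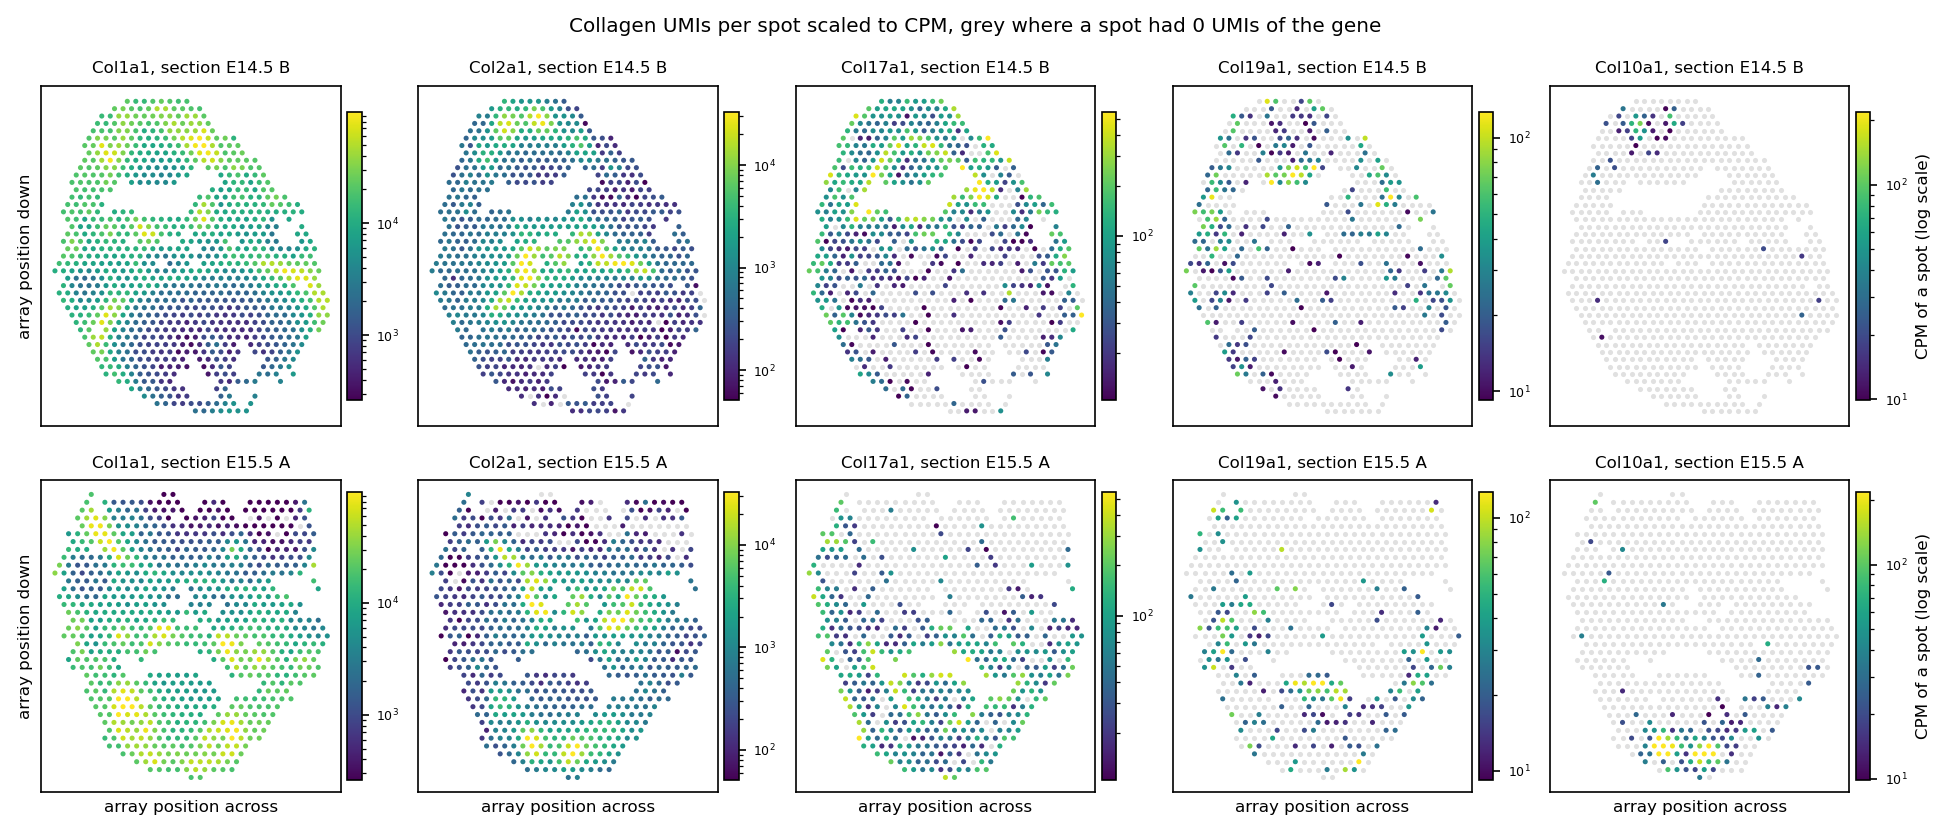
Position of 5 collagens in section B of E14.5 (top) and section A of E15.5 (bottom), each dot a spot at its place on the array, coloured by CPM on a log scale and grey where the gene had 0 UMIs. Col1a1 is found in nearly every spot, Col2a1 peaks in compact patches, Col17a1 and Col19a1 are grey over much of the section, and Col10a1 has UMIs in 42 and 95 spots.

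The maps of single spots are summarised by Moran's I, computed on spots thinned to 3000 UMIs each. It is near 0 when neighbouring spots are no more alike than distant ones and near 1 when they are alike. Spots under 3000 UMIs could not be thinned and were left out. This kept 749 of 1103 spots in the E14.5 replicate 1 section, 458 of 664 in E14.5 section A and 653 of 717 in E14.5 section C. Thinned values of these sections therefore rest on part of their spots. Col1a1 (0.859 ± 0.0547, SD over 8 sections), Col1a2 (0.853 ± 0.0391), Col3a1 (0.772 ± 0.0996) and Col2a1 (0.752 ± 0.0483) had the highest values. They were followed by Col9a1 (0.594 ± 0.0777), Col9a3 (0.584 ± 0.077), Col11a2 (0.577 ± 0.0518) and Col9a2 (0.543 ± 0.0726). Thinning evened out the depth of spots and not of genes, and the first 4 members also ranked 1 to 4 by UMIs. The order is therefore not one of pattern alone. Of the members, 26 reached a mean of 0.1 at this depth. Among members with at least 703 UMIs left after thinning, Col18a1 (0.0347 ± 0.0315) and Col23a1 (0.00642 ± 0.0272) were lowest. Each lay below 0.1 in 8 of 8 sections, and the limit of 703 is the count of Col23a1 itself. Without thinning, Col18a1 stood at 0.262 and Col23a1 at 0.258. Col18a1 was called higher in 3 and Col23a1 in 5 of the 8 kinds of spots. Their low values at this depth therefore do not show that they lack a pattern.

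**Figure D5:**
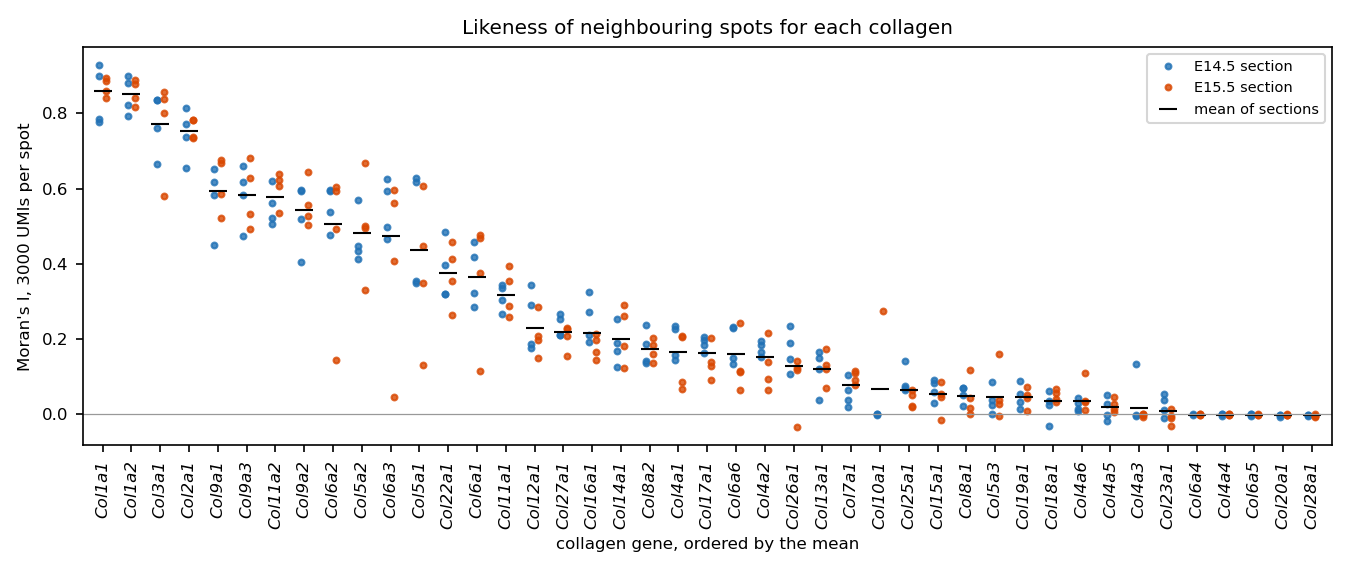
Moran's I of each collagen over neighbouring spots thinned to 3000 UMIs, with a point for each section (blue E14.5, red E15.5) and a bar for the mean of sections. The 4 major fibrillar chains lie above 0.58 in every section, and members with few UMIs lie near 0.

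In the plot of Moran's I the stages overlap for the leading members. Sections spread most for Col6a3, from 0.0451 to 0.627, and for Col5a1, from 0.130 to 0.629. Both lowest values were those of E15.5 section C. The other sections lay at 0.407 or above for Col6a3 and at 0.349 or above for Col5a1. Without thinning, 39 members reached 0.1, and Col1a2 (0.869) stood beside Col1a1 (0.856).

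Genes with the most similar pattern over spots were sought among 12087 genes outside the family, by the mean Pearson correlation over the 8 sections, for the 34 members with at least 100 UMIs in every area. Spots of a section share a library and a range of depths, so these values are a description. Col1a1 was most like Sparc, a collagen-binding protein of bone matrix, with a mean of 0.82 (0.50 to 0.96 over sections), and Col1a2 like Sparc and Serpinh1, the collagen chaperone (0.78). Col2a1 was most like the link protein gene Hapln1, with a mean of 0.74 (0.45 to 0.88 over sections), and Col9a3 like Matn1, a matrilin of cartilage (0.78). Col22a1 and Col13a1 shared Ibsp, which encodes bone sialoprotein (0.71 and 0.58), and Phospho1, a phosphatase of mineralization (0.69 and 0.58). For Col13a1 the first gene was Car3 (0.58), and Ibsp left its first 3 without the E14.5 replicate 1 section. Col11a2 was like Kazald1 (0.63) and Itga10, a collagen-binding integrin chain (0.63). Ibsp, Hapln1 and Matn1 also belong to the lists that chose the bone-rich and cartilage-rich spots.

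Epithelial members stood apart in the same way, Col17a1 with the basal keratins Krt14 (0.72) and Krt15 (0.71) and Col7a1 with Krt14 (0.53) and Krt5 (0.52). Col6a6 was most like Dlk1 (0.52), followed by the muscle genes Myh3 (0.49) and Ttn (0.49). Without the E14.5 replicate 1 section, Myh3 was no longer among its first 3. These keratins and muscle genes also belong to the lists that chose the epithelium-rich and muscle-rich spots. Col4a1 was like the laminin chain gene Lamb1 (0.57) and Col14a1 like the decorin gene Dcn (0.54). Col8a2 was like the homeobox gene Six2 (0.56) and Col26a1 like the elastin gene Eln (0.57). For Col4a5 and Col8a1 no gene reached 0.3. Of the 96 genes named by this measure, 82 stayed among the first 3 of their member without the shallow E14.5 replicate 1 section. Among members with at least 5000 UMIs, the 16 pairs of 1 collagen type had a median correlation of 0.718 (0.161 to 0.933, the highest for Col1a1 with Col1a2) and the 512 pairs of different types 0.261 (-0.177 to 0.820).

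Whether collagens changed between E14.5 and E15.5 was tested on the sums of areas, 2 against 2. For 19 of 43 members (44.2%) the CPM of each E15.5 area was above that of each E14.5 area, among them Col1a2, Col3a1, Col5a2, Col6a1, Col7a1, Col13a1, Col15a1, Col18a1 and Col19a1, where 25.2% of 14624 genes with at least 100 UMIs did so. Both lay below for 1 member, Col4a3 (2.33%, and 15.3% of all genes), on 341 UMIs. With the mean of the spots' CPM in place of the CPM of the sum, both E15.5 areas lay above for 10 members, against 17.9% of all genes, and 9 of them were among the 19. Col1a2, Col3a1, Col7a1, Col15a1 and Col18a1 were not among the 10. In edgeR, 0 of the 44 members were called, as were 0% of 15609 genes in either direction, 930 of which had an unadjusted p under 0.05. Log2 fold changes were above 0 for 39 of 44 members, with a median of 0.37 against -0.0016 for all genes. This rested on single areas, since the median was 0.14 (28 of 44 above 0) without the E14.5 replicate 1 area and 0.10 (27 of 43) without the E15.5 area of replicates 2, 3 and 4, but 0.62 and 0.59 without the other E14.5 and the other E15.5 area. With all areas, Col15a1 alone had an unadjusted p under 0.05, at 47.8, 47.6, 65.8 and 83.4 CPM (log2 fold change 0.58 ± 0.24 (SE), edgeR adjusted p = 0.769). DESeq2 called 37 genes, 21 higher and 16 lower, with 0 collagens among them and 4 at an unadjusted p under 0.05.

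The tissue in the sections differed between the areas at the same time. Over the 4 areas the bone genes summed to 542, 953, 824 and 1835 CPM, the cartilage genes to 364, 296, 262 and 636 CPM, and the neuron genes to 3389, 2461, 2269 and 1242 CPM. Both E15.5 areas lay below both E14.5 areas in neuron genes and above in muscle (1086 to 2832 against 3234 to 3776 CPM), epithelium (555 to 1283 against 1599 to 1747 CPM), endothelial (295 to 336 against 391 to 402 CPM) and macrophage genes (129 to 133 against 140.0 to 191 CPM), while tendon, oral mesenchyme and red blood cell genes overlapped. Their part in the collagen values was not tested, but the stages were also compared within bone-rich and within cartilage-rich spots. These are the richest 10% of each section and were not matched in marker level between the stages. The median of bone genes in bone-rich spots was 3629 to 4526 CPM in E14.5 and 4366 to 9063 CPM in E15.5 sections. That of cartilage genes in cartilage-rich spots was 875 to 3272 CPM and 911 to 5970 CPM. In bone-rich spots 0 of 38 members were called (0% of 13209 genes, 155 at an unadjusted p under 0.05), with a median log2 fold change of 0.01 against 0.01 for all genes, and in cartilage-rich spots 0 of 39 (0% of 13553 genes, 137 at an unadjusted p under 0.05), with -0.01 against -0.01. The areas moved these medians, to between -0.16 and 0.10 in bone-rich spots, and in cartilage-rich spots to 0.26 without the E15.5 replicate 1 area and -0.38 without the other E15.5 area. DESeq2 called 0 collagens in both. The members nearest to a call were Col13a1 in bone-rich spots (log2 fold change 0.76 ± 0.34 (SE), edgeR adjusted p = 0.9998) and Col8a1 in cartilage-rich spots (log2 fold change 1.14 ± 0.39 (SE), edgeR adjusted p = 0.9999).

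Left-out areas changed this for 1 member. Without the E15.5 replicate 1 area, Col10a1 was called higher at E15.5 over all spots (2.91) and in cartilage-rich spots (3.71), where all 4 areas gave 1.95 ± 1.23 and 2.71 ± 1.35 (SE), and the remaining E15.5 area is the one with section A. Whether the enrichment itself differed between the stages was tested as an interaction. In bone-rich spots 0 of 42 members were called (0.0647% of 13910 genes higher and 0% lower), with a median of -0.41 against -0.01 for all genes and 13 members at an unadjusted p under 0.05. In cartilage-rich spots 0 of 42 were called (0% of 14000 genes), with a median of -0.35 against 0.02 and 7 members at an unadjusted p under 0.05. Without the E15.5 area of replicates 2, 3 and 4 the bone-rich median was -0.16, with 3 members at an unadjusted p under 0.05, and without the E14.5 area of replicates 2, 3 and 4 it was -0.63, with 22. The cartilage-rich median was -0.15 without the E14.5 replicate 1 area and -0.71 without the other E14.5 area. Col3a1 came nearest in bone-rich spots (log2 fold change -0.77 ± 0.20 (SE), edgeR adjusted p = 0.235), was called by DESeq2, and stood at 2.04, 1.45, 1.13 and 0.843 fold in the 4 areas. Without the E15.5 replicate 1 area 8 members were called as less enriched in bone-rich spots at E15.5 (125 of all genes lower, 161 higher), and without the E14.5 area of replicates 2, 3 and 4, which left the shallow area alone at its stage, 21 members in cartilage-rich spots (990 lower, 1174 higher).

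Genes that make and assemble collagen were counted from a list of 31, such as prolyl and lysyl hydroxylases, chaperones, procollagen proteinases and lysyl oxidases. In bone-rich spots 27 were called higher and 0 lower, where 27.5% and 26% of all genes were, with a median log2 fold change of 1.05 against 0.01. In cartilage-rich spots 17 were called higher and 0 lower, where 11.6% and 12.9% of all genes were, with a median of 0.38 against -0.04. The bone-rich count was 25 to 28 without each area in turn, while the cartilage-rich count fell to 7 without the E14.5 area of replicates 2, 3 and 4 and to 9 without the E15.5 area of replicates 2, 3 and 4. The largest in bone-rich spots were Loxl4, a lysyl oxidase (3.41 ± 0.17), Sparc (2.13 ± 0.09), the prolyl hydroxylase P4ha2 (2.02 ± 0.15), Pcolce, an enhancer of procollagen processing (2.01 ± 0.11), the collagen chaperone Fkbp10 (1.90 ± 0.12) and Pcolce2 (1.80 ± 0.09). In cartilage-rich spots they were Loxl3 (1.94 ± 0.08), P4ha3 (1.89 ± 0.17), Pcolce2 (1.87 ± 0.15), Plod2 (1.32 ± 0.12), Adamts3, the proteinase of type II procollagen (1.01 ± 0.21), and Plod3 (0.93 ± 0.12). Without the E14.5 area of replicates 2, 3 and 4 the call of Adamts3 was lost (1.04). Among the lysyl oxidases, Loxl3 stood at 0.21 ± 0.11 in bone-rich spots (adjusted p = 0.151, edgeR) and was called there without the E15.5 area of replicates 2, 3 and 4 (0.31). Loxl4 stood at 0.34 ± 0.18 in cartilage-rich spots (adjusted p = 0.234, edgeR) and was called there without the E15.5 replicate 1 area (0.60). The difference between the places was not itself tested.

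In tendon-rich spots 19 assembly genes were called higher and 2 lower (17.7% and 22.2% of all genes), and in neuron-rich spots 1 and 27 (34.4% and 39%). Muscle-rich spots had 12 and 5 (21.5% and 25.6%) and endothelial-rich spots 7 and 0 (11.1% and 9.18%). Epithelium-rich spots had 9 and 4 (22.2% and 20.8%) and oral mesenchyme-rich spots 6 and 1 (16.4% and 18.4%), so that the higher calls in both were near the share of all genes. Apart from the neuron-rich spots, these counts depended on the areas, as those called higher ranged from 7 to 25 in tendon-rich, 7 to 18 in muscle-rich, 2 to 18 in epithelium-rich, 0 to 10 in endothelial-rich and 1 to 14 in oral mesenchyme-rich spots without each area in turn. Between the stages 0 of 31 were called. Of 9 collagen receptors 8 were tested, with 5 called higher and 2 lower in bone-rich and 3 higher and 1 lower in cartilage-rich spots. The shares called lower were near those of all genes given above. The integrin chain Itga10 (2.89 ± 0.11 in bone-rich and 1.36 ± 0.20 in cartilage-rich spots), its relative Itga11 (1.94 ± 0.11 and 1.22 ± 0.10) and the receptor kinase Ddr2 (1.21 ± 0.12 and 0.37 ± 0.08) were called higher in both. Itga2 (0.71) and Itgb1 (0.66) were called higher in bone-rich spots only among these 2 kinds, Itga1 (-0.37) was called lower there, and Ddr1, the epithelial receptor kinase, was called lower in both (-0.88 and -0.50). These fold changes are on the log2 scale with edgeR adjusted p-values under 0.1, and the calls of Ddr2 (0.39) and Ddr1 (-0.50) in cartilage-rich spots were lost without the E14.5 area of replicates 2, 3 and 4.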

How the data were processed

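Formalin-fixed coronal head sections were profiled with Visium, and the authors made the deposited counts, whole numbers of UMIs per gene and spot with no normalization, with Space Ranger 1.3.1 (replicate 1 areas) or 2.0.0 and the mouse build mm10. The probe set and annotation are not given in the sources used here. All 6357 tissue spots with UMIs were kept with no further filter, apart from the thinned values of Moran's I, which left out spots too shallow to thin. The 19 barcodes off tissue were left out. Areas shared 2161 spot barcodes, which name array positions. Sections were separated by position, with 88 spots in none. Counts were summed per capture area and tested in edgeR 4.0.16 (R 4.3.3, TMM, filterByExpr, quasi-likelihood, threshold 0.1 on the adjusted p), first checked on simulated data. The SE given with an edgeR fold change is the size of the log2 fold change divided by the square root of the F value of its test. Spots were not used as replicates. DESeq2 1.42.0, limma 3.58.1, other filters, normalizations, spot fractions and left-out areas were alternatives. Chain ratios were tested by exact permutation. A further list of marker genes is not reported here. Collagens and lists were chosen with earlier results of these data known. Every collagen with at least 100 UMIs was described, likeness named up to 3 genes of mean correlation 0.3 or more, and up to 6 called assembly genes were named per comparison by size of fold. In the files, 22 genes shared a symbol with another. Intervals and counts cover counting error only. Promoters came from RefSeq and gene positions from GENCODE M21, both on GRCm38.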

Additional observations from a re-analysis of the deposited data

Results flagged for a closer look

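Within the 4 sections of a stage, 9 of 86 sets of collagen levels (10.5%) had 1 section far from the others by Dixon's criterion. Chance gives about 1 in 20 for independent values of like precision. Sections differed in depth and all sets came from the same sections, so the 10.5% cannot be read against that rate. The 3 sections of an area are 1 library, and section A of E14.5 had the lowest median depth of its area. Col10a1 stood at 1.6 CPM in E14.5 section B (others 0.217 to 0.415) and at 16.2 CPM in E15.5 section A (others 0.178 to 0.479). E14.5 section A was highest for Col15a1, at 79.1 CPM (others 43.1 to 47.8), for Col25a1, at 64.4 CPM (25.4 to 31), for Col7a1, at 31.8 CPM (14.3 to 16.3), and for Col9a3, at 827 CPM (329 to 380). The E14.5 replicate 1 section was lowest for Col19a1, at 5.7 CPM (others 8.88 to 9.35), and the E15.5 replicate 1 section for Col4a6, at 5.17 CPM (7.91 to 8.13). E15.5 section C was highest for Col6a1, at 585 CPM (519 to 521).

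For 7 collagens the fold of rich spots over the rest lay above 1 in both E14.5 areas and below 1 in both E15.5 areas. In bone-rich spots the folds of Col5a3 were 3.08, 1.28, 0.906 and 0.583 (interaction, edgeR adjusted p = 0.36) and those of Col17a1 1.68, 1.08, 0.78 and 0.603 (edgeR adjusted p = 0.246). In cartilage-rich spots they were 1.43, 1.02, 0.993 and 0.772 for Col4a1, 1.26, 1.06, 0.898 and 0.835 for Col5a1, and 1.39, 1.07, 0.93 and 0.855 for Col5a2. Col6a3 had 1.67, 1.05, 0.87 and 0.881 and Col13a1 1.21, 1.1, 0.755 and 0.835 (edgeR adjusted p = 0.844 for these 5). No interaction passed the threshold, and 214 sets of folds were looked at. The first fold of each gene came from the shallow E14.5 replicate 1 area, where Col5a3 had 123 UMIs over all spots. Bone-rich spots of that area had a median of 4501 UMIs.

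Outside the tissue, the 19 barcodes off tissue held 14402 collagen UMIs of 562491 (2.56%).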

How the results depend on the processing

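Of 2074 alternative values of called collagens, 1788 kept direction and call, 281 lost the call and 5 reversed, and 116 of 204 calls held under every alternative. The 5 reversed in the richest 20% of spots, Col9a1 (0.17), Col9a3 (0.025), Col9a2 (0.13) and Col2a1 (0.20) in tendon-rich and Col9a2 (0.016) in oral mesenchyme-rich spots, and the cause was not tested. Members called lower in bone-rich spots were 10 without TMM and 2 with no area block, and 1 interaction was called there by DESeq2. With no area block, 5 were lower in cartilage-rich and tendon-rich, 3 higher and 0 lower in endothelial-rich, and 10 higher in oral mesenchyme-rich spots. In the richest 20%, 28 were higher and 2 lower in tendon-rich and 1 lower in oral mesenchyme-rich spots. Endothelial-rich spots had 11 higher and 4 lower in the richest 5%, 0 lower without TMM and 2 lower in spots of at least 1000 UMIs, an alternative chosen after seeing the data. With the mean of spots' CPM, 10 members had both E15.5 areas above.

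Leaving out 1 area in turn, called members ranged from 0 to 1 between stages over all spots, 0 to 0 in bone-rich and 0 to 1 in cartilage-rich spots. They ranged from 15 to 22 higher and 2 to 8 lower in bone-rich, 12 to 15 and 2 to 15 in cartilage-rich, 12 to 26 and 1 to 10 in tendon-rich, 11 to 18 and 9 to 15 in muscle-rich, and 12 to 21 and 8 to 10 in epithelium-rich spots. The ranges were 0 to 0 and 34 to 36 in neuron-rich, 5 to 17 and 0 to 7 in endothelial-rich, and 8 to 22 (16 without the E15.5 replicate 1 area) and 4 to 11 in oral mesenchyme-rich spots, and 0 to 8 and 0 to 21 for the interactions with stage in bone-rich and cartilage-rich spots. The likeness measure kept 82 genes.

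With the replicate number as a block, 0 collagens were called in each of the 3 stage comparisons, as without it. Samples with the same number share a Space Ranger version and the number of sections of an area, the labels tie them no further, and their deviations correlated at 0.246. Each stage had 2 areas and the shallowest section 6759 UMIs per spot, and which of these limits the stage calls was not tested.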
